A study of Mus musculus with 4 samples.

Results

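The kinases that feed into JNK, and the scaffolds that hold them together, were followed in 4 mouse mammary tumor cell lines with and without JNK. The genes were taken by symbol and numbered 10 of the 38713 genes measured: the MAP2Ks Map2k3, Map2k4, Map2k6 and Map2k7, the MAP3Ks Map3k1, Map3k5, Map3k7 and Map3k11, and the scaffolds Mapk8ip1 and Mapk8ip3. RNA was sequenced from cultured lines, each grown from a separate tumor of a parous mouse (strain C57BL/6 in the labels, C57BL6/J in the study's methods) and each giving 1 library. The JNK_WT lines (replicates 1 and 2) came from mice that carried Wap-Cre+/- and Trp53 LoxP/LoxP, and the JNK_KO lines (replicates 1 and 3) from mice that carried in addition Mapk8 LoxP/LoxP together with Mapk9 LoxP/LoxP. Loss of Trp53, the gene for p53, was thus shared by both groups, and the groups differed in the floxed alleles of Mapk8 (JNK1) and Mapk9 (JNK2). The Wap promoter is active in luminal mammary epithelium during lactation, so these lines model tumors of that origin, and a line is 1 tumor that has also adapted to culture.

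JNK is the last kinase of a relay. A MAP3K that responds to stress, cytokines or small GTPases phosphorylates a MAP2K, and the MAP2K then phosphorylates JNK; MAP2K4 and MAP2K7 are the MAP2Ks that act on JNK, with a preference for the tyrosine and the threonine of its activation loop, respectively, whereas MAP2K3 and MAP2K6 act on the related kinase p38, which MAP2K4 can also reach. Scaffold proteins of the JIP family bind kinases of several tiers at once, and in human breast tumors MAP3K1 and MAP2K4 are recurrently inactivated by mutation.

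The point where the tiers meet is the activation segment of the MAP2K, which carries the serine and the threonine that MAP3Ks phosphorylate. The coding sequence of this segment, 81 bases or 27 codons, is shown for the 4 MAP2Ks because it is the target of the MAP3K tier and shows how far the genes resemble each other. It was read from GRCm38 transcripts of GENCODE M21 in the sense direction, and capitals mark the codons of the phosphorylated serine and threonine.
Map2k3: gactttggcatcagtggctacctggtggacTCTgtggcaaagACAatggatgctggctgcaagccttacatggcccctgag
Map2k4: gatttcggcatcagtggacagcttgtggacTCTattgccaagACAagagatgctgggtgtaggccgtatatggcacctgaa
Map2k6: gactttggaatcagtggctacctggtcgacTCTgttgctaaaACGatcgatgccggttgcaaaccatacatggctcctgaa
Map2k7: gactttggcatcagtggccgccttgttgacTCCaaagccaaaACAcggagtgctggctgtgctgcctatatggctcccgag
The segment crosses an exon boundary in each gene. It spans exons 7 and 8 of 11 in Map2k4 (chr11:65706984-65707058 and chr11:65696360-65696365, minus strand) and exons 8 and 9 of 12 in Map2k7 (chr8:4244532-4244606 and chr8:4244695-4244700, plus strand). It also spans exons 8 and 9 of 12 in Map2k3 (chr11:60946697-60946771 and chr11:60947111-60947116, plus strand) and exons 8 and 9 of 11 in Map2k6 (chr11:110496392-110496466 and chr11:110497897-110497902, plus strand). All 4 genes had the same base at 48 of the 81 positions. Map2k3 and Map2k6, whose products act on p38, were the most alike (68 of 81). Map2k4 and Map2k7, whose products act on JNK, matched at 58 of 81, the same number as Map2k3 and Map2k7. Despite this resemblance, no stretch of 40 bases, the length of the reads, was shared between any of these 4 genes over their annotated exons.

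The targeted genes were examined first. FPKM (fragments scaled by transcript length and by the mapped total of the library) of Mapk8 were 23.9 and 19.1 in JNK_WT and 4.30 and 4.27 in JNK_KO, and those of Mapk9 were 29.7 and 24.3 against 12.6 and 8.66, so each was lower in JNK_KO without overlap, as the labels have it. Trp53, targeted in both groups, was at 1.55 and 4.15 against 5.72 and 4.28. Epithelial markers (Epcam, Cdh1, Krt8, Krt18, Cldn4, Cldn7) were all present and summed to 3772 and 2822 FPKM in JNK_WT and to 1127 and 2436 FPKM in JNK_KO. The sum was lower in both JNK_KO lines and, like each marker, lowest in JNK_KO replicate 1. Taken singly, Epcam and Krt8 were lower in JNK_KO without overlap, while Cdh1, Krt18, Cldn4 and Cldn7 overlapped. Cdh1 was highest in JNK_KO replicate 3 (127 FPKM). The basal markers Krt5, Krt14, Krt17 and Trp63 divided the libraries across the groups, with sums of 18.4 and 36.1 in JNK_WT replicate 1 and JNK_KO replicate 1 and of 728 and 346 in JNK_WT replicate 2 and JNK_KO replicate 3. The 6 fibroblast markers summed to 11.7 and 1.52 in JNK_WT and to 108 and 176 in JNK_KO. Dcn (79.7 and 162 FPKM) and Pdgfra (24.7 and 7.82 FPKM) made up most of the JNK_KO sums and were under 1 FPKM in JNK_WT, and Pdgfrb was at 0.0404 and 0.194 against 2.17 and 2.99 FPKM. Col1a2 was highest in JNK_WT replicate 1 (10.3 FPKM, most of the sum of that line), Col1a1 was under 1 FPKM in every library and Lum was at or near 0. The 4 endothelial markers and 5 of 7 leukocyte markers, Ptprc among them, were under 1 FPKM in every library. In bulk RNA of this kind, fewer cells of a type and less RNA per cell cannot be told apart.

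The 10 genes formed 3 bands of abundance that were separate in every library (plot of levels by gene). The upper 2 bands nearly met in JNK_KO replicate 1, where Map2k4 was at 14.55 and Mapk8ip3 at 14.24 FPKM. Since FPKM is scaled to transcript length, levels of different genes may be compared. Map2k3 had the highest mean over the 4 libraries at 43.5 FPKM, followed by Map2k4 at 27.6, Map3k7 at 26.2 and Map2k7 at 19.2. The scaffold Mapk8ip3 (12.2 FPKM) and Map3k11 (12.0 FPKM) formed the middle band. Map3k1 (6.87 FPKM), Map3k5 (5.93 FPKM), Mapk8ip1 (4.99 FPKM) and Map2k6 (3.13 FPKM) were the least abundant. Neighbours within a band had ranges that overlapped over the libraries, so their order is not beyond their spread, and only Map2k7 and Mapk8ip3, and Map3k11 and Map3k1, were neighbours whose ranges did not overlap.

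**Figure D1:**
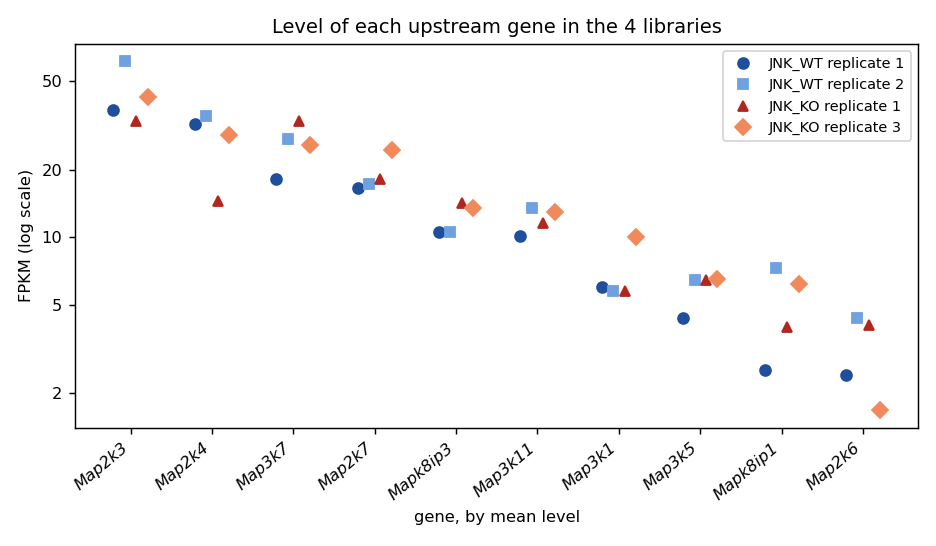
FPKM (log axis) of the 10 upstream genes, ordered by mean level, with 1 point per library: blue for JNK_WT and red or orange for JNK_KO. Map2k3, Map2k4, Map3k7 and Map2k7 lie above the middle pair Mapk8ip3 and Map3k11, and Map2k4 in JNK_KO replicate 1 lies apart from its other 3 libraries.

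To ask whether JNK loss altered the genes above JNK, limma was fitted to log2(FPKM + 1) of the 12998 genes with at least 1 FPKM in at least 2 libraries, a filter that all 10 genes passed. Differences are given as JNK_KO minus JNK_WT. Calls required a Benjamini-Hochberg adjusted p-value under 0.05 and an absolute log2 difference over 0.75, the limits the study used. None of the 10 genes was called by limma (0 of 10, beside 0.0% of all genes tested), and 0 of 10 had an unadjusted limma p-value under 0.05, beside 7.63% of all genes tested. With 2 lines against 2 the p-values measure only the spread between these lines. The groups did not overlap for 4 of 10 genes, beside 35.0% of all genes tested: Map2k7, Map3k5 and Mapk8ip3 were higher in both JNK_KO libraries (18.3% of all genes tested), and Map2k4 was lower (16.7%). The share of the 10 genes was thus near the background. The sums of epithelial and fibroblast markers were also apart between the groups, although single markers of both lists overlapped. The part of these markers in the 4 genes was not tested. No gene of the 10 differed by more than 0.75, beside 15.7% of all genes tested. Log2 differences were positive for 7 genes and negative for 3, with a median of 0.19 against 0.01 for all genes tested, and the median absolute difference was 0.31 against 0.27.

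**Figure D2:**
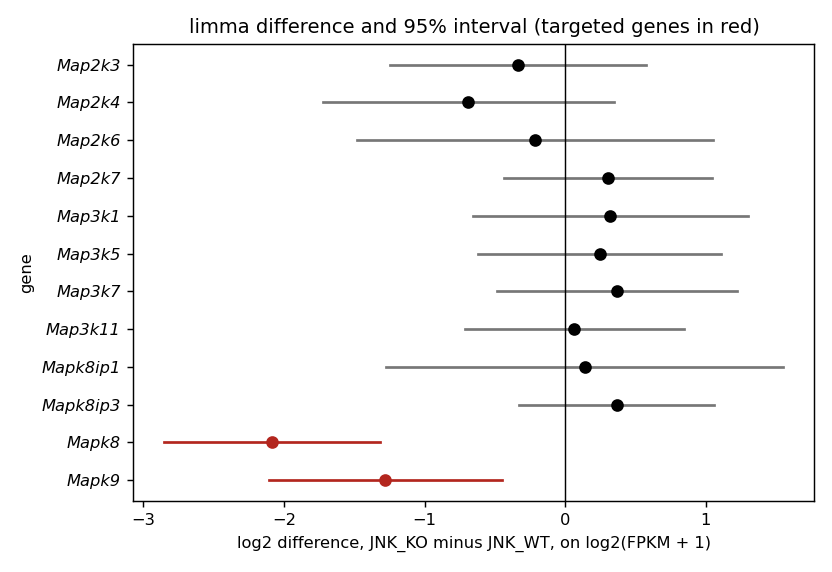
Log2 difference, JNK_KO minus JNK_WT, on log2(FPKM + 1), with the 95% limma interval as a bar, for the 10 upstream genes (black) and the targeted genes Mapk8 and Mapk9 (red). All 10 upstream intervals include 0, from -0.69 for Map2k4 to 0.37 for Map3k7 and Mapk8ip3, and those of Mapk8 (-2.08) and Mapk9 (-1.28) lie below 0.

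Among the MAP2Ks, the pair that acts on JNK differed in opposite directions. Map2k4 (GRCm38 chr11:65688243-65788297, minus strand) measured 32.2 FPKM in JNK_WT replicate 1, 35.0 FPKM in JNK_WT replicate 2, 14.5 FPKM in JNK_KO replicate 1 and 28.6 FPKM in JNK_KO replicate 3. Both JNK_KO libraries were below both JNK_WT libraries, although JNK_KO replicate 3 lay much nearer to the JNK_WT lines than to JNK_KO replicate 1, from which it differed 1.97-fold. The group means were 33.6 ± 1.97 FPKM in JNK_WT and 21.6 ± 9.95 FPKM in JNK_KO (SD, n = 2 each). The log2 difference was -0.69 (SE 0.39, 95% interval -1.72 to 0.35) with a limma adjusted p-value of 0.843. It was -0.22 without JNK_KO replicate 1 and -1.15 without JNK_KO replicate 3. The sum of epithelial markers was likewise lower in both JNK_KO lines and lowest in JNK_KO replicate 1, although Cdh1, Krt18, Cldn4 and Cldn7 overlapped between the groups. The part of these markers in the Map2k4 level was not tested.

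Map2k7 (chr8:4238740-4247897, plus strand) measured 16.7 and 17.2 FPKM in JNK_WT and at 18.3 and 24.6 FPKM in JNK_KO. The JNK_WT lines were close together, and JNK_KO replicate 3 stood above the other 3 libraries. The log2 difference was 0.31 (SE 0.28, 95% interval -0.43 to 1.05) and the limma adjusted p-value 0.961, and the difference was 0.10 without JNK_KO replicate 3. Of the 40-base stretches in the exons of Map2k7, 33.3% also occur in the overlapping gene model Gm49320 on the same strand, which has no row of its own in the table under that name, so the level of Map2k7 is uncertain to that extent.

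The p38-directed MAP2Ks overlapped between the groups. Map2k3 (chr11:60932033-60952811, plus strand) measured 37.0 and 61.1 FPKM in JNK_WT and at 33.1 and 42.5 FPKM in JNK_KO. JNK_WT replicate 2 was the highest, and the other JNK_WT line fell between the JNK_KO lines. The log2 difference was -0.33 (SE 0.34, limma adjusted p-value 0.978) and became 0.02 without JNK_WT replicate 2. Map2k6 (chr11:110399122-110525522, plus strand), whose product is the closest relative of MAP2K3, was at 2.43 and 4.35 FPKM in JNK_WT and at 4.06 and 1.68 FPKM in JNK_KO, so each group held a high and a low line. Its log2 difference was -0.22 (SE 0.48, limma adjusted p-value 0.999), and it was 0.24 without JNK_KO replicate 3.

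Since Map2k4 and Map2k7 both act on JNK, their levels were also set against each other within each library, which removes any scaling between libraries (plot of the pair). The ratio of Map2k4 to Map2k7 FPKM was 1.93 and 2.03 in JNK_WT and 0.796 and 1.16 in JNK_KO. Map2k4 was the more abundant of the pair in both JNK_WT lines and in JNK_KO replicate 3, and Map2k7 was the more abundant in JNK_KO replicate 1. On the log2(FPKM + 1) scale the ratio was 0.91 and 0.98 against -0.31 and 0.21, a difference of -0.995 in the group means. An exact two-sided permutation test gave p = 0.333, which is the smallest value that 2 lines against 2 allow. The difference was -0.74 without JNK_KO replicate 1 and -1.26 without JNK_KO replicate 3.

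**Figure D3:**
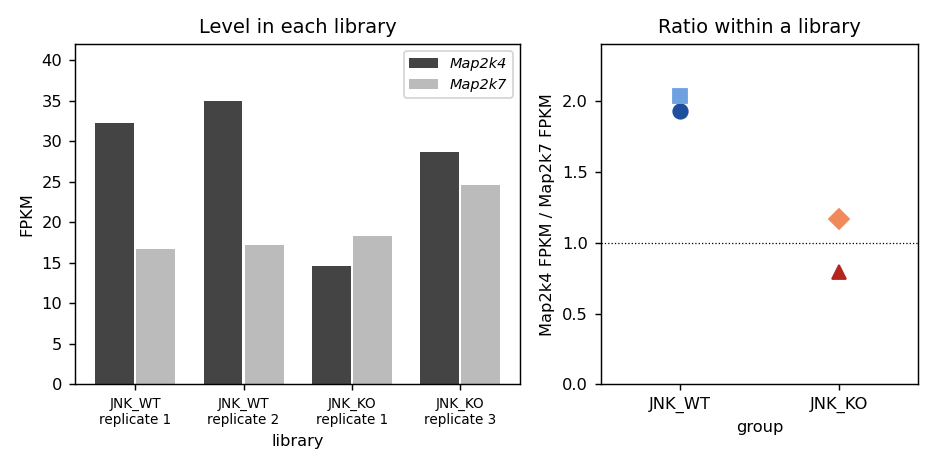
Left, FPKM of Map2k4 (dark) and Map2k7 (light) as bars from 0 in each of the 4 libraries; right, the ratio of Map2k4 to Map2k7 FPKM, with 1 point per library and a dotted line at equal levels. The ratio is 1.93 and 2.03 in JNK_WT and 0.796 and 1.16 in JNK_KO.

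The same pair was also set in the pool of the 4 MAP2Ks. The 4 genes summed to 88.4 and 118 FPKM in JNK_WT and to 70.0 and 97.4 FPKM in JNK_KO. Map2k3 held the largest share in every library, between 41.9% and 51.9% of the sum. Map2k4 held 36.5% and 29.7% in JNK_WT and 20.8% and 29.4% in JNK_KO, and Map2k7 held 18.9% and 14.6% against 26.1% and 25.3%. The shares of Map2k7 were therefore apart between the groups, while the Map2k4 share of JNK_KO replicate 3 was close to that of JNK_WT replicate 2. A share also depends on the rest of the sum, which was lowest in JNK_KO replicate 1. Map2k7 itself was at 18.3 FPKM in that line, beside 17.2 FPKM in JNK_WT replicate 2. Map2k6 held at most 5.80%.

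A promoter of each of this pair is shown, that of the outermost start, because their levels differed in opposite directions between the groups. They were taken from RefSeq on GRCm38.p6 (250 bases before to 50 after the annotated start) and are printed 5′ to 3′ on the strand of the gene. Capitals mark matches to any of 4 motifs searched on both strands: TGANTCA (a loose form of the AP1 site, with any base at N), TGACGTCA (the CRE), the GC box with the letters GGGCGG, and the CCAAT box. AP1 is the family that includes JUN, which JNK phosphorylates.
Map2k4: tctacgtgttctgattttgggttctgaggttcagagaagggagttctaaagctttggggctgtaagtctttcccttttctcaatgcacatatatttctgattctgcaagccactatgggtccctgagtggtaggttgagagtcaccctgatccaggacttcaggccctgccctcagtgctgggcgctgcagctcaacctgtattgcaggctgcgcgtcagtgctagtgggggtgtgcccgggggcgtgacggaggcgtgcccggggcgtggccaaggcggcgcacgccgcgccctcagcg
Map2k7: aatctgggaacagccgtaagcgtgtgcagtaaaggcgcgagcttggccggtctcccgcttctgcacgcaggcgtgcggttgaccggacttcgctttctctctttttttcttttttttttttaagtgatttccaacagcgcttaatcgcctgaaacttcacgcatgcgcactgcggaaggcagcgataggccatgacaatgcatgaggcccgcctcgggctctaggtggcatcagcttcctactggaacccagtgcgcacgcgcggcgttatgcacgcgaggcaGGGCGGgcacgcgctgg
The Map2k4 window (chr11:65788310-65788609, minus strand) held 16 CpG and none of these letters, and the Map2k7 window (chr8:4238490-4238789, plus strand) held 29 CpG and 1 GC box, beside a median of 7 CpG over all 32851 promoters of the table. Each gene had a further RefSeq start: that of Map2k4 (chr11:65745807-65746106) held 3 CpG and 1 CCAAT box, and that of Map2k7 (chr8:4239855-4240154) held 0 CpG and 1 match to TGANTCA. RefSeq gave 13 promoters for 9 of the 10 genes. TGANTCA occurred in 2 of the 13 (a second start of Map2k7 and 1 start of Map2k6, both as TGATTCA) and in 7.81% of all promoters, and TGACGTCA in 0 of 13 and 1.79%. GGGCGG occurred in 7 of 13 and 35.7% of all promoters, with 6 matches in Map3k1 alone, and CCAAT in 3 of 13 and 37.4%. These matches are letters in a window and not evidence of binding.

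The 4 MAP3Ks all had positive differences, none of them beyond the spread between lines. Map3k7, which encodes the cytokine-responsive kinase TAK1 (chr4:31964097-32023467, plus strand), measured 18.3 and 27.6 FPKM in JNK_WT and at 33.2 and 25.7 FPKM in JNK_KO. JNK_WT replicate 1 was the lowest and JNK_KO replicate 1 the highest, and the remaining pair crossed. The log2 difference was 0.37 (SE 0.32, 95% interval -0.49 to 1.22) with a limma adjusted p-value of 0.956. Fits without 1 line ranged from 0.08 without JNK_WT replicate 1 to 0.65 without JNK_WT replicate 2. Map3k7 RNA was the most abundant of these MAP3Ks in every library, with 46.7% to 58.3% of their summed FPKM.

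Map3k1, the gene for MEKK1 (chr13:111746428-111808993, minus strand), was at 6.02 and 5.76 FPKM in JNK_WT and at 5.74 and 9.98 FPKM in JNK_KO. A single line, JNK_KO replicate 3, stood above the others, which lay close together. The log2 difference of 0.32 (SE 0.37, limma adjusted p-value 0.985) was -0.03 without that line. Map2k7 had its highest value in the same line, and over the 4 libraries Map2k7 and Map3k1 were the nearest of the 10 genes to each other, with a root mean square distance of 0.11 between their centred log2 profiles.

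Map3k5, which encodes the redox-sensitive kinase ASK1 (chr10:19934472-20142753, plus strand), measured 4.36 and 6.42 FPKM in JNK_WT and at 6.44 and 6.50 FPKM in JNK_KO. The other lines were nearly alike and JNK_WT replicate 1 was lower, so the groups were barely apart. They overlapped once the libraries were scaled to the same median or quantile normalized, and the log2 difference of 0.24 (SE 0.33, limma adjusted p-value 0.994) was 0.01 without JNK_WT replicate 1. Map3k11, the gene for the mixed-lineage kinase MLK3 that the GTPases Rac and Cdc42 activate (chr19:5688742-5702865, plus strand), measured 10.2 and 13.4 FPKM in JNK_WT and at 11.6 and 12.9 FPKM in JNK_KO. Both JNK_KO values fell between the JNK_WT values, and the log2 difference was 0.06 (SE 0.29, 95% interval -0.71 to 0.84). Map3k11 shares 9.12% of its 40-base stretches with genes on the opposite strand, of which Pcnxl3 had a log2 difference of -0.21.

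The 2 scaffolds were the narrowest and the widest of the 10 genes in how far the difference ranged when a line was left out. Mapk8ip3, the gene for JIP3, which links JNK to kinesin transport (chr17:24892153-24936977, minus strand), was at 10.5 and 10.6 FPKM in JNK_WT and at 14.2 and 13.5 FPKM in JNK_KO. Lines of the same group were close and the groups were apart. The log2 difference was 0.37 (SE 0.26, 95% interval -0.33 to 1.06) with a limma adjusted p-value of 0.922. It ranged only from 0.33 to 0.40 when any 1 line was left out. The limma adjusted p-value stayed between 0.744 and 0.949 over the settings of the fit that used all 4 lines. Mapk8ip3 shares 18.1% of its 40-base stretches with other genes, mainly those that overlap its exons. Of these, Eme2, on the same strand, was at 7.45 and 9.63 FPKM in JNK_WT and 6.59 and 6.54 in JNK_KO. The log2 differences of Mrps34 and Nme3 were -0.15 and -0.49. Reads shared by overlapping genes are divided by estimate, and the part of this division in the Mapk8ip3 level was not tested.

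Mapk8ip1, the gene for JIP1, the founding scaffold of the family (chr2:92383676-92401263, minus strand), was at 2.55 and 7.27 FPKM in JNK_WT and at 3.95 and 6.19 FPKM in JNK_KO. It had the widest spread of the 10 genes, 2.85-fold from lowest to highest, and both JNK_KO values fell between the JNK_WT values. The log2 difference was 0.14 (SE 0.53, 95% interval -1.27 to 1.55) and the limma adjusted p-value 0.999, and the difference ranged from -0.47 to 0.75 when 1 line was left out. The order of the libraries was that of the basal marker sum. JNK_WT replicate 2 was highest, then JNK_KO replicate 3, JNK_KO replicate 1 and JNK_WT replicate 1. This order was not particular to Mapk8ip1, since Map3k11 had it too (13.4, 12.9, 11.6 and 10.2 FPKM). The part of the basal markers in either level was not tested.

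The rest of the pathway was described from 5 lists of 46 other genes, of which 42 were tested and 4 were under 1 FPKM in all libraries. None was called by limma (0 of 42), and 3 of 42 had an unadjusted limma p-value under 0.05 (beside 7.63% of all genes tested), of which Mapk8 and Mapk9 are the targeted genes and Tnik is the third. The groups did not overlap for 4 genes that were higher and 11 that were lower in JNK_KO, together 35.7% of the 42 genes beside 35.0% of all genes tested. Of all genes tested, 18.3% were higher and 16.7% were lower without overlap. JNK and p38 kinases, the targeted genes among them, made up 3 of the 11 lower genes. The median log2 difference was -0.12, or -0.02 for the 36 tested genes that are not JNK or p38 kinases. The other 3 MAP2Ks, which act on ERK kinases, all overlapped, and the largest differences were those of Map2k2 at -0.17 and Map2k5 at -0.14. Of 15 other MAP3Ks, 1 was higher and 4 were lower without overlap. The largest differences there were 1.57 for BC021891, an older symbol of Map3k21, whose groups overlapped (0.445 and 4.75 against 3.03 and 17.1 FPKM), and -1.19 for Map3k15 (4.29 and 1.18 against 0.716 and 0.287 FPKM). Of 9 other scaffolds and adaptors, Spag9, the gene for JIP4, was at 33.2 and 47.7 FPKM in JNK_WT and 26.1 and 31.1 in JNK_KO (log2 difference -0.47). The RNA of Spag9 was thus lower and that of Mapk8ip3 higher in JNK_KO without overlap, with limma adjusted p-values of 0.87 and 0.92. Traf2, an adaptor of TNF receptors, had a log2 difference of 0.35. Among 9 MAP4Ks and small GTPases, the MAP4K Tnik was at 3.89 and 3.49 FPKM in JNK_WT and at 1.01 and 0.0224 FPKM in JNK_KO (log2 difference -1.71, limma adjusted p-value 0.451), and Map4k3 was at 13.8 and 16.0 against 19.96 and 33.3 FPKM (log2 difference 0.76).

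Each gene was next set beside its chromosomal surroundings, the tested genes within 5 Mb on either side. The 10 genes lie on 8 chromosomes, with Map2k3, Map2k4 and Map2k6 on chromosome 11, where Trp53 also lies 3.79 Mb from Map2k4. The 145 neighbours of Map2k4 had a median log2 difference of -0.42, and 30 of them were positive, and the 100 neighbours of Map2k3 had a median of -0.49. These windows share 49 genes and are not independent, since Map2k3 and Map2k4 are 4.74 Mb apart. Over all 1094 tested genes of chromosome 11 the median was -0.20, beside 0.01 for all genes tested. The groups did not overlap and were lower in JNK_KO for 49 of the 145 neighbours of Map2k4, beside 16.7% of all genes tested, and higher for 8. Map2k4 lay 0.27 below its neighbours' median, with 31 of the 145 lower still, and Map2k3 lay 0.16 above the median of its own.

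**Figure D4:**
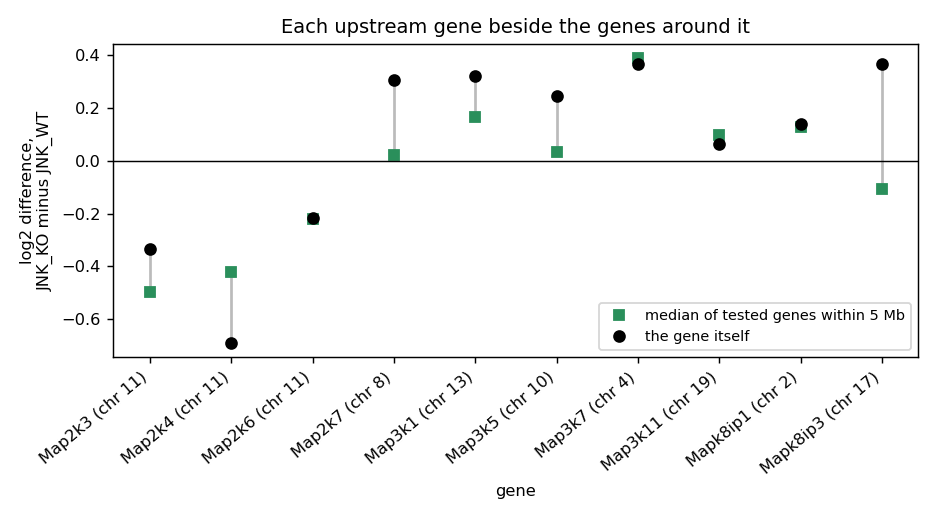
Log2 difference, JNK_KO minus JNK_WT, of each of the 10 upstream genes (black circles) and the median of the tested genes within 5 Mb of it (green squares). The neighbours of Map2k3 (-0.49) and Map2k4 (-0.42) have the lowest medians, and Mapk8ip3 (0.37) lies farthest from its neighbours (-0.11).

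The libraries did not contribute alike to the Map2k4 neighbourhood. Taken as deviations from the 4-library mean, the neighbours of Map2k4 had median deviations of 0.04 and 0.34 in JNK_WT replicates 1 and 2 and of -0.43 and 0.03 in JNK_KO replicates 1 and 3, and Map2k4 itself deviated by 0.29, 0.40, -0.81 and 0.12. The lowest library was JNK_KO replicate 1 in both cases. Without JNK_KO replicate 1 the neighbours' median difference was -0.15 around Map2k4 and -0.11 around Map2k3, without JNK_WT replicate 2 it was -0.25 and -0.31, and without JNK_KO replicate 3 it was -0.60 and -0.86. Chromosome 11 was also viewed in bins of 5 Mb, a view added after these values were seen (plot of chromosome 11). Bins run by coordinate from the start of Map2k4, a gene of the minus strand, so lower coordinates lie downstream of that start. JNK_KO replicate 1 had median deviations of -0.55, -0.63, -0.60 and -0.21 in the 4 bins from 15 Mb below to 5 Mb above the start. The bins were of 59, 55, 44 and 96 genes. In the 2 bins before these it was at -0.18 and -0.26 (12 and 28 genes), and in the next 3 bins beyond it was at -0.06, -0.04 and 0.02, and JNK_KO replicate 3 was between -0.0015 and 0.13 in the same 4 low bins. JNK_WT replicate 2 was above the mean in every bin of the chromosome, by 0.06 to 0.49, although the bin at 0.06 held only 3 genes. The low Map2k4 value of JNK_KO replicate 1 therefore stood in a stretch where the median gene of that line was low, and the source of the stretch was not tested.

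**Figure D5:**
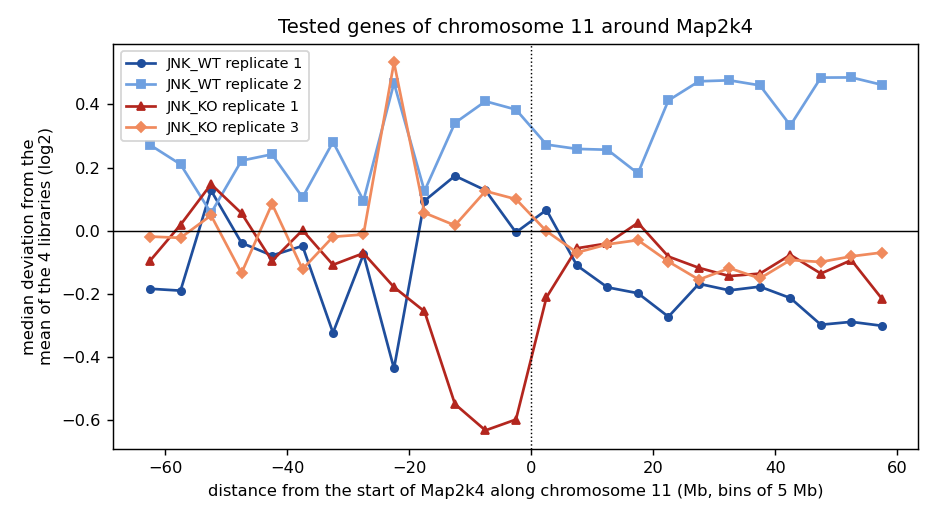
Median deviation (log2) of tested genes along chromosome 11 from their 4-library mean, in bins of 5 Mb by distance from the start of Map2k4 (dotted line), with 1 line per library. Bins run by coordinate, and Map2k4 is on the minus strand. JNK_KO replicate 1 lies between -0.55 and -0.63 in the 3 bins just below its start in coordinate, the nearest of which spans the gene. JNK_WT replicate 2 lies above 0 in every bin.

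For the remaining genes the surroundings differed. Map2k6, far along the same chromosome, had the same difference as its 71 neighbours (-0.22), although this median was 0.25 within 2 Mb. By library it did not follow them. In JNK_KO replicates 1 and 3 Map2k6 deviated by 0.35 and -0.57, and its neighbours had median deviations of -0.12 and -0.08. Map3k7 (0.37) also lay close to the median of its 19 neighbours (0.39), as did Map3k11 and Mapk8ip1 to theirs (0.10 and 0.13). By library Map3k11 and Mapk8ip1 did not follow their neighbours. In JNK_WT replicates 1 and 2 Map3k11 deviated by -0.22 and 0.15, beside neighbours' medians of 0.01 and -0.13. Mapk8ip1 deviated there by -0.68 and 0.54, beside 0.03 and -0.135. Map2k7, Map3k5 and Map3k1 lay above their neighbours' medians by 0.29, 0.21 and 0.16. Mapk8ip3 was the farthest from its surroundings: its 176 neighbours had a median of -0.11, it lay 0.47 above that, and 161 of them (91.5%) had a lower difference. Several of these medians rested on single lines: without JNK_WT replicate 2 they were 0.15 around Map2k6, 0.72 around Map3k7, 0.03 around Mapk8ip1 and 0.05 around Mapk8ip3, and without JNK_KO replicate 3 they were 0.38 around Map3k1 and -0.14 around Map3k5. Without JNK_WT replicate 1 they were 0.13 around Map2k7 and 0.40 around Map3k1.

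The genes with the profile most like that of Map2k4 over the 4 libraries were also near it on the chromosome. By the root mean square distance between centred log2(FPKM + 1) values, the nearest were Ubb, a ubiquitin gene (chr11:62551171-62553213, plus strand; distance 0.0068), which measured 128 and 139 FPKM in JNK_WT and 59.9 and 114 FPKM in JNK_KO, and the tyrosine kinase gene Tnk1 (chr11:69851005-69858730, minus strand; distance 0.026), which measured 15.0 and 15.9 against 6.67 and 13.1 FPKM. Of the 25 tested genes within a distance of 0.1 of Map2k4, 10 were on chromosome 11, which holds 8.58% of the tested genes with a position, and 6 were within 5 Mb. The closest profiles to Map2k7 were those of Lmbr1l (0.019) and Itpk1 (0.021), which lie on other chromosomes. Of the genes within 0.1 of Map2k7 that have a position, 14 of 194 (7.22%) were on chromosome 8, which holds 5.05% of those tested, and 1 was within 5 Mb. The closest profiles to Map3k1 were those of Tnfaip2 (0.025) and Fam214b (0.032), and 3.90% of the genes within 0.1 were on chromosome 13, beside 3.66% of those tested. With 4 libraries, many genes come this near by their number alone, 198 in the case of Map2k7, and nothing is drawn from the likeness about function.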

How the data were processed

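RNA was extracted from 4 established tumor cell lines (JNK_WT, n = 2; JNK_KO, n = 2), and groups and replicate numbers were taken from the labels. The authors trimmed single-end reads with Trimmomatic, sampled them with seqtk, aligned them to mm10 (GRCm38) with TopHat2 2.0.14 and Bowtie2, and computed the deposited FPKM with Cufflinks 2.2.1. Reads shared between overlapping genes are divided by estimate, which can move FPKM between such genes. Strandedness and the annotation used were not given in the sources used here. Of 38741 rows, 27 with a date in place of a symbol and 1 with no value were left out. FPKM summed to between 775960 and 921595 per library. Low values gave relative depths of 1.06, 1.27, 1 and 1.41 for JNK_WT replicates 1 and 2 and JNK_KO replicates 1 and 3, and no interval that needs read counts was computed.

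Differences were tested on log2(FPKM + 1) with limma 3.58.1 in R 4.3.3, by lmFit and eBayes (trend set), two-sided and with Benjamini-Hochberg adjustment over 12998 genes. A pseudocount of 1 understates the change of low genes. The test was first tried on simulated data. The thresholds were those of the study, whose Cuffdiff test needs alignments and was not used here. Positions came from GENCODE M21 by symbol (12758 of 12998 genes tested) and promoters from RefSeq (GRCm38.p6). Figures were drawn with matplotlib 3.10.9.

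The 10 genes, the pathway lists and the marker lists were chosen with earlier results of these data known. The rule for named genes was: all 10 genes, the targeted genes, in each pathway list the called genes or else the 2 with the largest absolute difference, and for Map2k4, Map2k7 and Map3k1 the 2 genes nearest in profile. Genes that share exon bases with one of the 10 were added after the data were seen. Alternatives were other pseudocounts, filters, scalings, variance models, thresholds and windows, and fits without each line.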

Additional observations from a re-analysis of the deposited data

How the results depend on the processing

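None of the 10 genes and no gene of the pathway lists was called by limma under any setting run. Of all genes tested, 25 were called at an adjusted p-value threshold of 0.1, and at 0.05 up to 14 were called (pseudocount 0.5 or no trend). The groups were apart for 4 of the 10 genes, and for 3 once the libraries were scaled to the same median or quantile normalized, where Map3k5 overlapped. Without 1 line it was 6 to 8, an alternative chosen after seeing the data, in which a single line stands for its group. The Map2k4 to Map2k7 log2 ratio differed by -1.04 to -0.98 over the other pseudocounts and scalings and by -1.26 to -0.74 without 1 line. Scaling to the same median could hardly move a ratio taken within a library. Among the log2 differences of the 10 genes, directions turned only in fits without 1 line: Map2k3 ranged from -0.69 to 0.019, Map2k6 from -0.68 to 0.24, Map3k1 from -0.030 to 0.67, Map3k11 from -0.12 to 0.25 and Mapk8ip1 from -0.47 to 0.75. The cause was not tested beyond the smaller number of lines. The medians of all genes moved from 0.01 to -0.03 with the same median and to -0.04 with quantile normalization. Count models were left out because FPKM are not counts. No paired analysis was possible because replicate number 1 alone is common to the groups, and the labels tie it to no litter or day.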
